A study of Mus musculus with 6 samples.

Results

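BAZ2A peaks whose midpoint lay in coding sequence (CDS) were taken from the iCLIP peak list of mouse embryonic stem cells (ESCs). A peak was a member when its midpoint fell in the CDS of any transcript of the gene that the list names for it. This gave 720 of 3127 peaks (23.0%, Wilson 95% interval 21.6 to 24.5), here called CDS peaks, in 559 genes, all protein-coding. The other peaks used for comparison had their midpoint in an intron (1539 peaks), in a 3'UTR (497) or in a 5'UTR (214).

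iCLIP uses UV light to link a protein to the RNA it touches, after which the protein is precipitated and the cDNA of its RNA is sequenced. The cells were E14 ESCs grown in N2B27 medium with LIF and 2i inhibitors, in which endogenous BAZ2A carries FLAG and HA tags, and nuclei were isolated before precipitation with anti-FLAG beads. Crosslinked cells received 400 mJ/cm2 of UV-C and background cells none, with 3 libraries of each kind. Per the study's methods, equal volumes of a crosslinked replicate and of its background replicate were combined ahead of sequencing. The deposited list holds peaks called over all libraries together, so no value of a single library, no depth and no replicate error can be given, and all intervals below cover the counting or the spread of peaks only. The list holds no expression values, so the labelled cell type could not be checked against marker levels, and the level of a transcript and its contact with BAZ2A cannot be told apart.

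BAZ2A, also called TIP5, is the large subunit of the chromatin remodelling complex NoRC and is known for silencing ribosomal RNA genes. Its TAM domain binds RNA. Coding sequence is the part of a messenger RNA that ribosomes read, and in the nucleus it is present both in transcripts that still hold introns and in spliced ones.

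As examples, 4 highly scored peaks with all their bases in coding sequence are given first, in RNA sense with T for U. They were picked among peaks that hold 1 of the words marked below, as 107 of 717 CDS peaks (14.9%) do. They are also longer than the median CDS peak of 63.0 nt. Capitals mark the word CCTCCT and the same repeat begun a base later, which is CTCCTC, or a base earlier, which is TCCTCC. These pyrimidine words of 6 bases were present in a larger share of CDS peaks than of windows in the same coding sequences. The words were known from an earlier result on the whole list, which includes these peaks. The larger share is thus a description and no test. Slc7a5 encodes an amino acid transporter, Tmem192 a lysosomal membrane protein, Nid2 a nidogen of basement membranes and Plxnb2 a semaphorin receptor.
Slc7a5 (chr8:121907139-121907274, minus strand, score 10.5): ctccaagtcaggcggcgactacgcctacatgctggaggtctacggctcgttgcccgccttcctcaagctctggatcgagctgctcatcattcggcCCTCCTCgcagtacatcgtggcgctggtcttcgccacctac
Tmem192 (chr8:64964198-64964327, plus strand, score 9.49): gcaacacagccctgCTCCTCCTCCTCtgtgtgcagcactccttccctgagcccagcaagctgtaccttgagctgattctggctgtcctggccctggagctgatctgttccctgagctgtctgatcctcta
Nid2 (chr14:19768596-19768745, plus strand, score 11.7): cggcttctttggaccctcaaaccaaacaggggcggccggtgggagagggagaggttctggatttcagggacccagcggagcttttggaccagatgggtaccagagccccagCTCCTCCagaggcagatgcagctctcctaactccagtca
Plxnb2 (chr15:89167198-89167323, minus strand, score 10.9): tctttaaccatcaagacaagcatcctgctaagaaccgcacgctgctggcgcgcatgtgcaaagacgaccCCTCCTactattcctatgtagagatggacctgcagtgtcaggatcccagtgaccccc

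The size and score of CDS peaks were compared with those of the other classes. CDS peaks had a median length of 63.0 nt (95% interval of the median 62 to 66), with a range from 5 to 373 nt. Peaks in 3'UTRs had a median of 64.0 nt (61 to 66), whereas peaks in introns were shorter at 52.0 nt (50 to 53) and peaks in 5'UTRs longer at 79.0 nt (73 to 89). The score, a value of the peak caller whose scale is not stated, had a median of 4.64 in CDS peaks (4.41 to 4.82). It was 4.60 in 3'UTR peaks (4.31 to 5.01), 5.49 in 5'UTR peaks (4.85 to 6.44) and 3.81 in intron peaks (3.70 to 3.94). CDS peaks contributed 16.8% of the summed score of the list, and none scored above 35.8, while the highest scores were 266 in 3'UTRs and 1000 in introns. Score and length rose together over the 720 CDS peaks (Spearman's rho 0.75, a description over peaks that share libraries). In the 240 CDS peaks with the lowest score the median length was 39.0 nt, and in the 240 with the highest it was 100.0 nt.

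The 10 CDS peaks with the highest score lay in 9 genes of varied function. The first was a short peak of 24 nt in Atp2a2, which encodes a calcium pump of the endoplasmic reticulum, with a score of 35.8. Igfbp2, whose product binds insulin-like growth factors, held 2 of the 10, with scores of 31.7 in exon 3 and 28.2 in exon 1. Cd81, a tetraspanin of the cell surface, followed with a score of 30.3. The other 6 lay in the histone H4 gene Hist1h4h (28.6), in Polr2a, the largest subunit of RNA polymerase II (24.8), in Epop, a partner of Polycomb complexes (24.6), in the metallothionein gene Mt1 (23.9), in the pluripotency factor Klf2 (23.8) and in Rtn3, a reticulon that shapes membranes of the endoplasmic reticulum (21.5). Their lengths ran from 24 nt in Atp2a2 to 373 nt in Klf2, the longest CDS peak in the list.

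CDS peaks were next placed along the coding sequence, using the transcript with the longest coding sequence that holds the midpoint. The mode, a single position that the list gives inside each peak, lay in that coding sequence for 709 peaks. With each coding sequence cut into 5 equal parts, the first part held 209 of them (29.5%, Wilson interval 26.2 to 32.9), against 20% for an even spread. The following parts held 141, 126, 116 and 117 peaks, so the shares in the last 3 parts were between 16.4% and 17.8%. Within 100 nt of the start codon lay 80 modes (11.3%, 9.16 to 13.8), where 7.48% of the coding bases of the same transcripts lie. With only the peaks that have every base in CDS the share was 6.86% (4.98 to 9.39), with no excess left. This rule by construction leaves out peaks that reach into the leader, while the 7.48% counts all coding bases there. It therefore cannot decide on the excess. The 100 nt before the stop codon held 49 modes (6.91%, 5.27 to 9.02) for the same share of coding bases. The share in the first part was 24.2% in the 240 peaks with the lowest score and 35.8% in the 240 with the highest.

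**Figure D1:**
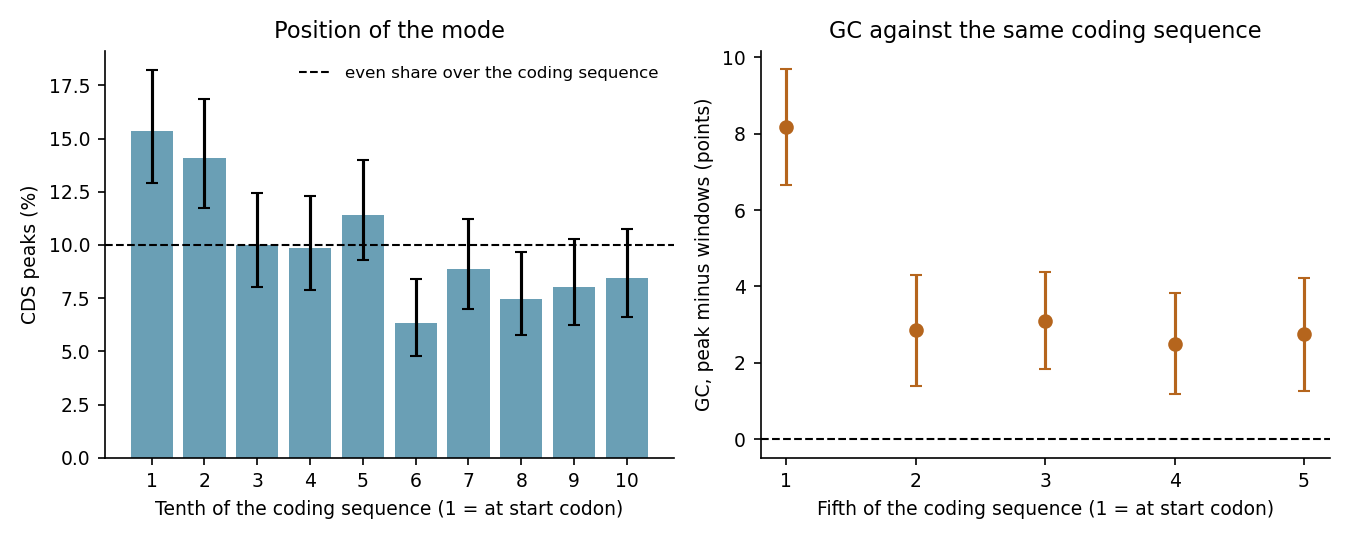
Left, share of 709 CDS peaks with their mode in each of 10 equal parts of the coding sequence, with Wilson 95% intervals and a dashed line at the even share of 10%. Right, mean difference in GC content between a peak and windows of the same coding sequence, by the part of 5 that holds the mode, with 95% intervals. Windows come from the whole coding sequence, not from that part alone, and a peak's bases outside coding sequence are counted. The first 2 of 10 parts hold 15.4% and 14.1% of the modes, and the GC difference is 8.17 points in the first of 5 parts and between 2.50 and 3.11 points in the other 4.

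A start codon of any annotated transcript of the gene lay inside 51 CDS peaks (7.08%, 5.43 to 9.19) and a stop codon inside 26 (3.61%, 2.48 to 5.24). The start codon peaks with the highest score were those of Rtn3 (21.5), of Cst3, which encodes the secreted protease inhibitor cystatin C (19.3), and of Cox4i1, a subunit of cytochrome c oxidase (18.4). In Cox4i1 the codon is the annotated start of an additional transcript, and the mode lay at base 159 of the longest coding sequence. The stop codon peaks with the highest score were those of Hist1h4h (28.6), Polr2a (24.8) and the linker histone gene Hist1h1d (16.9). The bases around the annotated start codon are given for Rtn3 and Cst3 with the codon in capitals, since these peaks join the leader to the coding sequence.
Rtn3 (chr19:7483036-7483095, minus strand): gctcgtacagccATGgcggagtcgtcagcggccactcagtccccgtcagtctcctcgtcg
Cst3 (chr2:148875330-148875389, minus strand): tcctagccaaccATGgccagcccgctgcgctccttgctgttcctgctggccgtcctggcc

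Peak ends were then set against exon edges, and this showed how the deposited intervals are placed. Of the 1440 ends of CDS peaks, 219 lay exactly 1 nt above an inner exon edge in genome coordinates, while 13 lay on the edge itself and 5 lay 2 nt above it. In all, 208 CDS peaks (28.9%, 25.7 to 32.3) had such an end, compared with 34 of 214 peaks in 5'UTRs (15.9%, 11.6 to 21.4), 4 of 497 in 3'UTRs and 1 of 1539 in introns. Only inner exon edges were counted, and 73.2% of CDS peaks lay in internal exons. The number of such edges within reach was not matched between classes. The offset had the same sign at the lower end of peaks (66 on the plus and 42 on the minus strand) and at the upper end (52 and 59). As deposited, 92 CDS peaks reach exactly 1 base into an intron. With coordinates as deposited, 130 CDS peaks (18.1%) held a base in no exon of their gene and 510 (70.8%, 67.4 to 74.0) had all bases in the coding sequence of 1 transcript. When all intervals were moved 1 nt to lower coordinates, which was chosen after seeing these values, 52 peaks (7.22%, 5.55 to 9.35) held a base in no exon and 594 (82.5%, 79.6 to 85.1) had all bases in coding sequence. The coordinates printed here are those deposited.

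**Figure D2:**
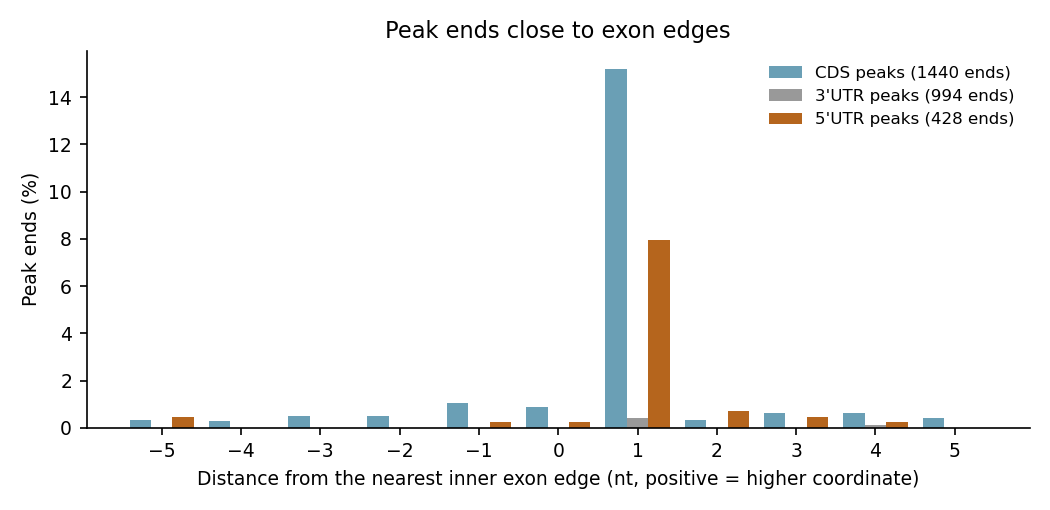
Share of peak ends at each distance from the nearest inner exon edge, for CDS, 3'UTR and 5'UTR peaks, in nt with positive values toward higher genome coordinates. CDS peak ends pile up at a distance of 1 nt (219 of 1440 ends), with 15 or fewer at every other distance from -5 to 5 nt.

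Since many ends met exon edges, pairs of CDS peaks that end and begin at neighbouring exons of the same transcript were counted, with 1 nt of tolerance around the offset. There were 19 such pairs in 18 genes, made up of 38 CDS peaks, and each pair is a single unbroken stretch in the spliced transcript apart from the offset. The pair with the highest score was in Mt1, where a peak of 66 nt (score 23.9) at the end of an exon met a peak of 32 nt (score 9.36) at the start of the next. Other pairs were found in Scd2, a fatty acid desaturase (16 and 43 nt, scores 3.91 and 11.8), Slc2a1, the glucose transporter GLUT1 (84 and 64 nt, scores 6.97 and 7.72), and Cdh1, which encodes E-cadherin (35 and 106 nt, scores 2.29 and 7.94). The Mt1 pair is shown with the 10 bases next to the junction in capitals, as deposited, which includes the 1 nt offset.
Mt1, upstream exon (chr8:94179824-94179889, plus strand): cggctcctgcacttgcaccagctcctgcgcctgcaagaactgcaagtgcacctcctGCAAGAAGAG
Mt1, downstream exon (chr8:94180103-94180134, plus strand): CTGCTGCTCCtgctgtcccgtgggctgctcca

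Only a minority of CDS peaks reached well into an intron. After the move by 1 nt, 41 of 720 peaks (5.69%, 4.23 to 7.63) had over 1 base in no exon, with a median of 14 such bases and a maximum of 81. Counts for single peaks are given as deposited, without the move. The peak of Cd81 held 35 intron bases before the exon. The peak of Srsf2, a serine and arginine rich splicing factor, held 60. On the other side of the exon the peak of Tdh, threonine dehydrogenase, held 80. The examples below show a peak over the end of an intron in Cd81, over the start of an intron in Laptm5, a lysosomal membrane protein, and over the end of an intron in Klf2, with coding bases in capitals.
Cd81 (chr7:143065908-143066018, plus strand, score 30.3): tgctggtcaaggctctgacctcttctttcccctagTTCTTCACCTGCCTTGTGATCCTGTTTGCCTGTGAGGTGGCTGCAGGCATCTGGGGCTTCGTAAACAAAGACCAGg
Laptm5 (chr4:130930776-130930884, plus strand, score 8.64): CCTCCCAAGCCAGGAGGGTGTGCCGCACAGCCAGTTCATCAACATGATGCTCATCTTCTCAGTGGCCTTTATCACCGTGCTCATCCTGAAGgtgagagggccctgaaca
Klf2 (chr8:72319397-72319475, plus strand, score 8.07): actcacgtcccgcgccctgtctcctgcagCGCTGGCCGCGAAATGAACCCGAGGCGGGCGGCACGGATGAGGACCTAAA

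The base composition of CDS peaks was compared with windows of the same length in the same coding sequence that no peak covered, which existed for 717 peaks. Peaks held 58.4% G and C and their windows 54.1%, a mean difference of 4.30 points (95% interval over peaks 3.62 to 4.99), and 496 peaks lay above their windows. The difference was 2.52 points (1.70 to 3.34) against windows of the same exon, available for 472 peaks. Windows hold coding bases only, whereas a peak's bases in leaders or introns were counted. With every base of the peak required in CDS the difference was 4.38 points (3.58 to 5.17). Cytosine carried the difference: its share was 31.5% in peaks and 26.9% in windows, a gain of 4.62 points (3.96 to 5.27). Adenine was lower by a similar amount, with 19.9% in peaks and 24.5% in windows (difference -4.61, -5.18 to -4.04). Guanine (-0.31, -0.92 to 0.30) and uracil (0.30, -0.22 to 0.83) had intervals that held 0.

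Cytosine was also the most common base at the mode, at 269 of 720 CDS peaks (37.4%, 33.9 to 41.0), compared with 27.2% for guanine, 18.5% for uracil and 16.9% for adenine. Over all bases of the same peaks cytosine had a mean share of 31.6%. The modes of 3'UTR peaks were at cytosine in 30.8% (26.9 to 35.0) and those of intron peaks in 29.6% (27.4 to 32.0), while in 5'UTR peaks the share of 36.4% (30.3 to 43.1) was close to that of CDS peaks. Mean GC content also differed, at 58.5% in CDS, 49.0% in 3'UTR, 51.3% in intron and 68.7% in 5'UTR peaks. Its part in these shares was not tested. With all positions moved 1 nt to lower coordinates the share of CDS modes at cytosine was 33.8% (30.4 to 37.3), an interval that holds the 31.6%. Whether modes hold more cytosine than their peaks and how far classes differ thus depends on the offset described above. Modes showed little preference for a position in the codon, with 234 at the first, 219 at the second and 256 at the third.

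The pyrimidine words, known from an earlier result on the whole list, and their purine complements were searched in RNA sense. CCTCCT was present in 69 of 717 CDS peaks (9.62%, 7.67 to 12.0) and in 3.78% of the windows. The shares were 8.23% (6.43 to 10.5) and 3.05% for TCCTCC, which was present in 59 peaks. They were 8.93% (7.05 to 11.2) and 3.44% for CTCCTC, which was present in 64 peaks. Any of the 3, which overlap each other, was present in 107 peaks (14.9%, 12.5 to 17.7) and 6.50% of the windows. The purine word GGAGGA was present in 41 peaks (5.72%, 4.24 to 7.67) and 5.41% of the windows, the word GAGGAG in 45 peaks (6.28%, 4.72 to 8.29) and 6.56%, and the word AGGAGG in 38 peaks (5.30%, 3.89 to 7.19) and 5.13%. Any of these was present in 69 peaks (9.62%, 7.67 to 12.0) and 10.6% of the windows. The pyrimidine words were present in 17.8% of peaks in the first of the 5 parts of the coding sequence (13.2 to 23.6, windows 5.67%) and in 12.8% in the last (7.93 to 20.1, windows 6.80%). These windows come from the whole coding sequence of the same peaks' transcripts, not from that part alone. They were present in 7.92% of the 240 peaks with the lowest score and in 23.3% of the 240 with the highest, which are also longer. In 3'UTR peaks their share was 15.9% (12.9 to 19.4), in intron peaks 12.1% (10.6 to 13.8) and in 5'UTR peaks 19.2% (14.4 to 25.0), and the intervals of CDS, 3'UTR and 5'UTR peaks overlap. A match is a description of the letters and says nothing of a bound site.

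The codons wholly inside CDS peaks, 16275 in all, were translated and compared with the rest of the same coding sequences. Proline made up 9.68% of the residues under a peak on average and 6.71% of the rest, a difference of 2.97 points (2.23 to 3.71), and alanine 8.87% and 7.59% (1.28 points, 0.63 to 1.93). Lysine was lower under peaks, with 3.67% and 5.83% (-2.17 points, -2.60 to -1.74), as was glutamate with 4.83% and 6.59% (-1.76 points, -2.32 to -1.19) and asparagine with 2.41% and 3.46% (-1.05 points, -1.37 to -0.74). Proline and alanine have codons that begin with CC and GC, while the codons of lysine and asparagine begin with AA, so these values and the base composition are not separate observations. Predicted folding showed no clear difference. Windows of 60 nt around the mode had a median minimum free energy of -13.7 kcal/mol and windows elsewhere in the same coding sequence -13.3, with a median difference of -0.38 (-0.92 to 0.02) that turned to 0.38 (-0.28 to 1.01) with windows of 100 nt.

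CDS peaks were found in 559 of 21755 protein-coding genes on the 20 chromosomes of the list (2.57%), and in 26.3% of the 2128 protein-coding genes with any peak. Of the 559 genes, 452 had 1 CDS peak, 77 had 2 and 30 had 3 or more. For 388 of them all peaks in the list were CDS peaks, while 83 also had a peak in a 3'UTR, 70 in an intron and 38 in a 5'UTR. In 23 CDS peaks the 30 bases around the mode occurred again elsewhere in the genome, with up to 6 places in all when the peak's own is counted, among them peaks of Rpl32, Rps18, Rpl28, Eif1 and Tuba1b, so reads of these genes could have been shared with near-identical copies.

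Of the 10 genes with the most CDS peaks, 9 encode secreted or membrane proteins. Hspg2, which encodes the basement membrane proteoglycan perlecan, had 8 CDS peaks with scores from 2.42 to 9.36, spread from base 1694 to base 12272 of a coding sequence of 13149 nt, and 4 of these peaks form junction pairs. Fn1 (fibronectin) had 7, with scores from 5.07 to 13.0, and Nid2 had 6, with scores from 2.61 to 12.2. Slc2a1 had 6 in a coding sequence of only 1476 nt, with scores from 3.70 to 12.6, and Canx, the chaperone calnexin, had 5 with scores from 2.32 to 11.5. Lamc1 (laminin gamma 1), Tmem39a, Lamp1, a lysosomal membrane glycoprotein, and Tmbim6, a membrane protein of the endoplasmic reticulum, had 4 each. The highest Slc2a1 peak and peaks of Lamp1 and Tmem39a have intervals that were also listed under another gene. Srrm2, which encodes a nuclear protein of splicing speckles, also had 4, with scores from 4.52 to 7.88, and is the exception among the 10. Per length of coding sequence Tmbim6 was the densest of these with 5.63 peaks per kb, followed by Slc2a1 with 4.07, while Hspg2 had 0.61 and Srrm2 0.49. Slc2a1 and Tmbim6 each hold a junction pair as well. With peaks that meet at a junction joined, Fn1 led with 7, Hspg2 and Nid2 had 6 each, Slc2a1 had 5 and Tmbim6 had 3.

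**Figure D3:**
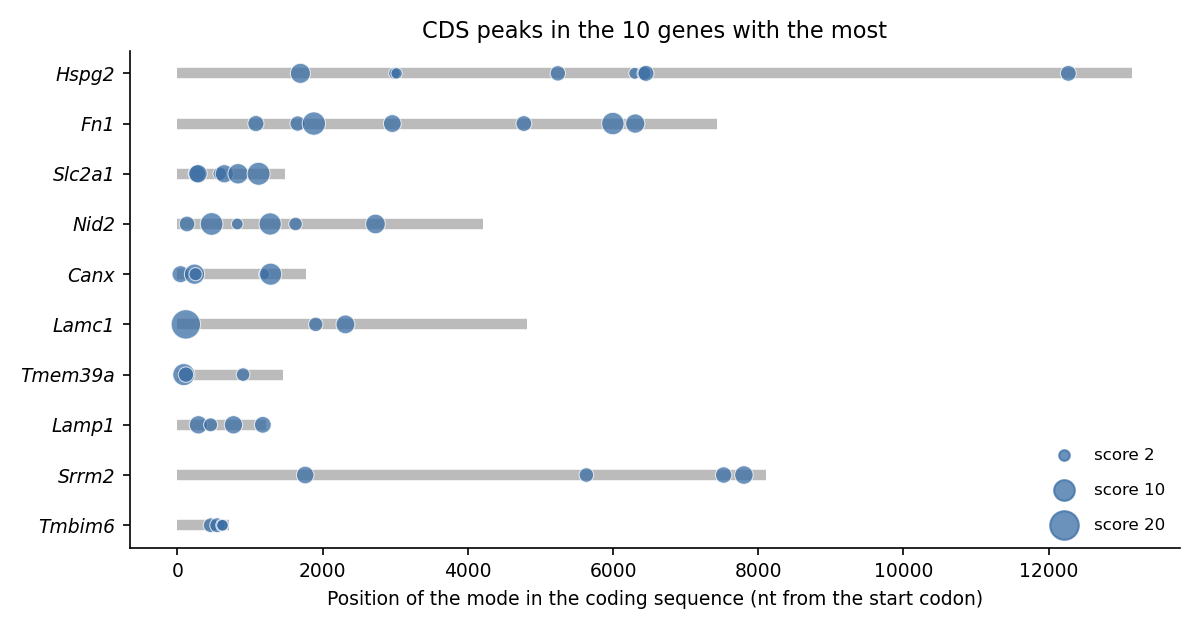
Modes of the CDS peaks along the coding sequence (nt from the start codon) of the 10 genes with the most CDS peaks. Grey bars are the coding sequence of 1 transcript per gene, and the area of each point grows with the peak's score. One peak each of Lamc1 and Tmem39a lies outside the coding sequence drawn and is not plotted.

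This pattern, noticed in the data, was described with a measure taken from protein sequence alone. The groups compared are set by the number of CDS peaks and include the genes in which the pattern was noticed. The shares below are thus a description and no independent test. A protein was counted when any 19 of its residues in a row had a mean Kyte-Doolittle hydropathy of at least 1.6, as membrane-spanning segments and many signal peptides do. By this measure 9344 of 21755 protein-coding genes (43.0%) encode a hydrophobic stretch, including 25 of 34 genes of the list of basement membrane and extracellular matrix and 4 of 79 cytosolic ribosomal proteins. Among genes with peaks but none in coding sequence the share was 35.3% (554 of 1569, 33.0 to 37.7). Among genes with a peak in a 3'UTR, some of which also have a CDS peak, it was 44.6% (39.99 to 49.30), close to that of genes with 1 CDS peak. It was 45.6% in genes with 1 CDS peak (41.0 to 50.2), 50.6% in those with 2 (39.7 to 61.5) and 90.0% in those with 3 or more (27 of 30, 74.4 to 96.5). The 3 without such a stretch were Fn1, Srrm2 and Mbd6, of which Fn1 is secreted. A stretch within the first 50 residues was found in 23.0% of all protein-coding genes. It was found in 13.2% of genes with peaks but none in coding sequence and in 19.3% of those with a 3'UTR peak. The share was 20.4% in genes with 1 CDS peak (16.9 to 24.3) and 24.7% in those with 2 (16.4 to 35.4), intervals that hold the 23.0%. It was 53.3% in genes with 3 or more (36.1 to 69.8). Longer proteins have more chances for a stretch and for a peak, and genes with 3 or more CDS peaks had a median coding sequence of 2834 nt against 1758 nt in genes with peaks but none in coding sequence. Of the latter genes with a coding sequence of at least that length, 41.1% (170 of 414, 36.4 to 45.9) encoded a stretch. With peaks that meet at a junction joined, 25 genes had 3 or more and 22 of them encoded a stretch (88.0%, 70.0 to 95.8). Neither transcript level nor the share of a transcript in the nucleus was measured here, and their part in this pattern was not tested.

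**Figure D4:**
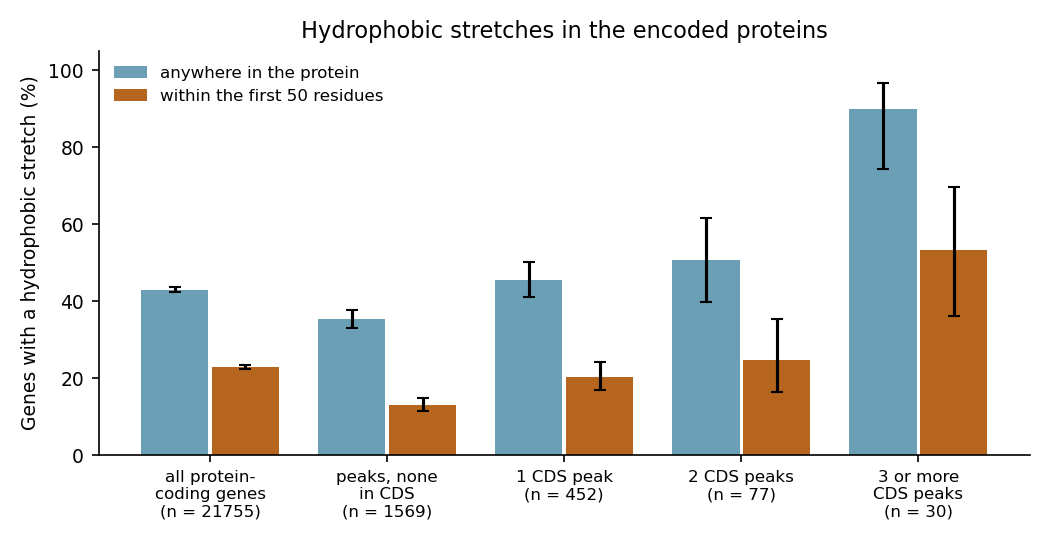
Share of genes that encode a hydrophobic stretch (19 residues with a mean hydropathy of at least 1.6), anywhere in the protein or within the first 50 residues, by the number of CDS peaks, with Wilson 95% intervals. The share is 90.0% in genes with 3 or more CDS peaks, compared with 43.0% in all protein-coding genes.

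Gene lists of known function were then counted. In all 14 lists the share of genes with a CDS peak, among members with any peak, lay above the background of 26.3%, and the interval lay wholly above it in 6 lists. Genes with CDS peaks also had a larger coding share of the gene's span (median 7.48%) than genes with peaks elsewhere only (3.42%), and in the lists this median ran from 5.09% to 16.9%. Its part in these counts was not tested, and the lists were chosen with earlier results of these data known.

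Genes of basement membrane and extracellular matrix had a CDS peak in 10 of 16 members with any peak (62.5%, 38.6 to 81.5), with 40 CDS peaks in all. Besides Fn1, Nid2, Hspg2 and Lamc1, these were Col18a1 (4 peaks), Lama5, Sparc and Agrn (3 each), Nid1 and Dag1 (1 each). Among cadherins and planar adhesion proteins 7 of 11 had a CDS peak (63.6%, 35.4 to 84.8), and Cdh1 led with 3 peaks of 8.61, 7.94 and 2.29. The list also held Vangl2, a planar polarity protein (5.72), the protocadherin Fat1 (5.67) and the receptors Notch3 (4.28), Notch1 (3.09) and Insr (2.88).

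Chaperones had a CDS peak in 11 of 20 members (55.0%, 34.2 to 74.2), and the 4 with the highest summed score work in the endoplasmic reticulum. Canx reached 33.5 over 5 peaks, the disulfide isomerase Pdia3 22.4 over 2, calreticulin (Calr) 17.5 over 2 and the HSP90 paralogue Hsp90b1 13.0 over 3. Cytosolic ribosomal proteins had a CDS peak in 17 of 38 members (44.7%, 30.1 to 60.3), of which 15 had 1 peak each. The highest were Rps18 (16.8), Rps3 (12.6 over 2 peaks), Rpl13 (11.9 over 2) and Rps9 (11.3), of which Rps18, Rpl13 and Rps9 hold sequence that occurs again in the genome. The same holds for the peaks of Rpl32, Rpl28, Rpl7, Rpl12, Rpl24, Rpl13a and Rps25, and thus for most of the 17 genes. The share of this list without such peaks is not given here.

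Translation factors had a CDS peak in 8 of 21 members (38.1%, 20.8 to 59.1), led by the initiation factor subunits Eif3f (12.1) and Eif4g1 (11.6 over 2 peaks), Gcn1l1 (11.4), whose peak is only 17 nt long, and the elongation factor Eef1a1 (5.99). Among aminoacyl-tRNA synthetases, which charge tRNAs, 4 of 7 had one (57.1%, 25.0 to 84.2), namely Vars (14.3 over 2 peaks), Gars (9.32), Sars (2.11) and Lars (1.96). In large cytoskeletal proteins, actin and tubulin the count was 9 of 20 (45.0%, 25.8 to 65.8), with high summed scores in Tubb5 (15.3), the crosslinker Macf1 (11.3 over 3 peaks) and Actb (11.1).

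Among RNA polymerase II and transcription machinery 5 of 9 members with any peak had a CDS peak (55.6%, 26.7 to 81.1). Polr2a held 3 peaks with scores of 24.8, 16.1 and 3.19, and the first 2 lay near the end of the coding sequence, which encodes the heptad repeats of the C-terminal domain. The others named were the Mediator subunit Med13l (6.86 over 2 peaks), the kinase Cdk13 (6.66) and Taf4 (2.69). Energy metabolism, a list that also holds genes of fatty acid synthesis, had 8 of 16 (50.0%, 28.0 to 72.0). It was led by Scd2 (26.4 over 3 peaks), the aldolase Aldoa (8.65), fatty acid synthase (Fasn, 6.46) and the phosphofructokinase Pfkp (5.71).

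As for the lists of translation factors, synthetases and cytoskeletal proteins, the intervals of the remaining 5 lists held the background. Splicing factors and RNA helicases had a CDS peak in 11 of 31 members (35.5%, 21.1 to 53.1), with the highest summed scores in Sfpq (31.4 over 2 peaks), Srrm2 (25.4 over 4), Srsf2 (15.3) and Hnrnpl (8.40). Chromatin regulators had 14 of 41 (34.1%, 21.6 to 49.5), among them the histone methyltransferase Kmt2d (23.5 over 2 peaks), Trim28 (13.5) and Srcap (9.36 over 2). Pluripotency factors had 8 of 21 (38.1%, 20.8 to 59.1), with Klf2 at 31.8 over 2 peaks, Klf5 at 17.3, the growth factor Fgf4 at 9.87 and Dppa5a at 9.11. DNA replication and repair had 4 of 11 (36.4%, 15.2 to 64.6), namely the polymerase Pole (13.9), the sliding clamp Pcna (7.79), Rrm1 (3.94) and Top2a (1.72). Proteasome and large ubiquitin ligases had 5 of 13 (38.5%, 17.7 to 64.5), led by the ubiquitin-activating enzyme Uba1 (11.6), Mycbp2 (5.78), Huwe1 (3.73) and Trip12 (2.20).

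**Figure D5:**
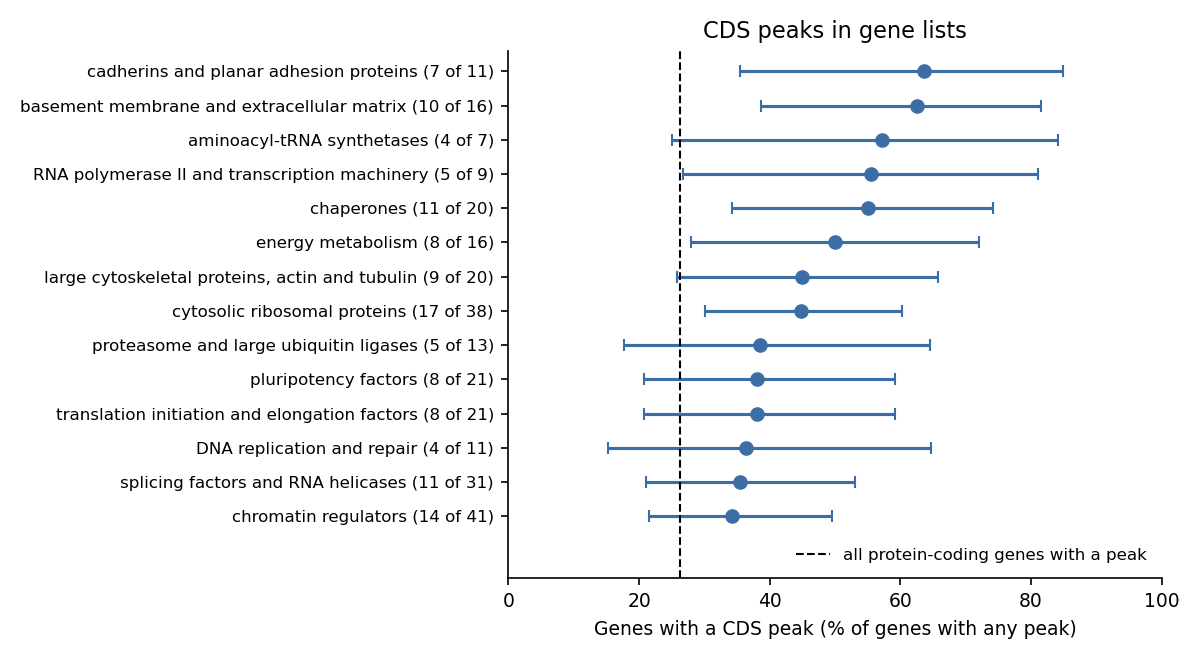
Share of genes with a CDS peak among members with any peak, for 14 gene lists, with Wilson 95% intervals. The dashed line is the share in all protein-coding genes with a peak, 26.3%, and all 14 points lie to its right.

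A part of the CDS peaks was very short. Of the 720, 41 (5.69%, 4.23 to 7.63) were 18 nt or shorter, compared with 1.41% of 3'UTR peaks, 9.35% of 5'UTR peaks and 13.3% of intron peaks. The median score of the short CDS peaks was 2.31. The 3 with the highest score lay in Gnptab (17 nt, score 16.1), Epha8 (12 nt, 14.3) and Chtf18 (16 nt, 13.6). A pattern from a primer was found in 12 of 720 CDS peaks (1.67%, 0.96 to 2.89), 7 of them at most 18 nt long. The pattern, on either strand, is ATTG, then 3 bases, then AGAT. ATTG is the barcode of the background libraries' reverse transcription primer and AGAT the start of its adapter. The share in other peaks is not given here, so it cannot be said whether 1.67% exceeds that of the whole list. The part of primer sequence in these peaks was not tested.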

How the data were processed

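Per the study's methods and the submitters' processing notes, the authors trimmed reads with Flexbar, removed duplicates with UMI-tools (version 0.5.1) after mapping to mm10 with STAR (version 2.6), and ran the peak caller omniCLIP at its default settings. Non-crosslinked libraries served the study as background controls. The paper reports that its gel check found no amplified product in them. The score that the authors deposited for each peak comes from the peak caller, on a scale the sources used here do not give, and was ranked, summed and compared within the list alone.

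Coordinates are mm10 (GRCm38), read as BED intervals and printed 1-based. Peaks were classed by midpoint against GENCODE M21, which held 2286 of the 2288 genes in the list, with CDS taking precedence over UTRs, then non-coding exons, then introns. All 662 transcripts used matched the genome sequence. Windows of a peak's length were tiled over the peak-free part of its coding sequence (39490 windows), and energies were predicted with RNAfold (version 2.7.2). Scripts ran in Python 3.11.15 with pandas 2.3.3, numpy 2.4.6, samtools 1.23.1 and scipy 1.17.1. The placement steps were checked on a made-up gene. Shares carry Wilson 95% intervals, medians exact order-statistic intervals and mean differences normal intervals over peaks. Neighbouring peaks of a gene share its transcript and are not replicates, and no p-value was computed, since the list pools all libraries and their depth is unknown.

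The CDS peaks, the pyrimidine words and the 14 gene lists were chosen with earlier results of these data known. By rule the text names the 10 CDS peaks with the highest score, the 10 genes with the most CDS peaks (ties by summed score), up to 4 genes per list, and the 3 highest-scored peaks with a start codon, with a stop codon and of at most 18 nt. A few genes that this rule selects are not reported here. Sequences shown were picked by score among peaks of at most 150 nt, within groups such as peaks that hold a pyrimidine word or cross into an intron. The hydrophobic stretches, the search for copies in the genome, the peak ends at exon edges, the junction pairs and other items named were chosen after values were seen. The gene of 56 CDS peaks is uncertain, since their interval was listed under more than 1 gene. An interval can thus count more than once among the 720, as for Rpl13a and Gm45713. With only intervals listed once there were 664 CDS peaks, and 27 genes had 3 or more.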

Additional observations from a re-analysis of the deposited data

How the results depend on the processing

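No paired analysis was possible because the list pools all libraries and holds no value per replicate. For 18 results, 178 values were computed under alternatives, of which 132 stayed within the interval of the value reported (or within 1.5 times a count). The direction held for all signed differences except folding energy, which reversed to 0.38 kcal/mol with windows of 100 nt. In the 50% of the list with the highest score there were 401 CDS peaks, in 29.0% of the protein-coding genes with a peak, with a median length of 87.0 nt and score of 6.60, 66.6% wholly in CDS, 14.5% within 100 nt of the start codon, 20.4% with a pyrimidine word, 42.6% of modes at cytosine, a GC difference of 5.18 points and 14 genes with 3 or more peaks. In the highest 10% there were 56 peaks, in 20.9% of genes, with a median length of 129.5 nt and score of 15.4, 48.2% wholly in CDS, 44.2% in the first of 5 parts, 23.1% within 100 nt of the start codon, 20.8% with a pyrimidine and 18.9% with a purine word, 44.6% of modes at cytosine, differences of 5.76 points for GC, 3.84 for proline and -1.20 for lysine, a folding difference of -1.53 kcal/mol, 42.0% of genes with a hydrophobic stretch and 0 genes with 3 or more peaks. These subsets hold higher-scored and thus longer peaks by construction.

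With every base required in CDS, 20.3% of genes had a peak, 25.9% of modes lay in the first of 5 parts and 6.86% within 100 nt of the start codon, 0% crossed an exon edge, proline differed by 3.82 points and 14 genes had 3 or more peaks. No excess within 100 nt of the start codon was left, but this rule by construction leaves out peaks that reach into the leader. With at least 1 base in CDS, 60.7% lay wholly in CDS, 30.8% of genes had a peak and the median length was 67.0 nt. With the midpoint in CDS of every transcript there were 332 peaks, in 12.6% of genes, with a median length of 67.0 nt and score of 4.86, a proline difference of 3.75 points and 13 genes with 3 or more peaks. GC differed by 2.52 points against windows of the same exon. With intervals 1 nt lower, 82.5% lay wholly in CDS, 7.22% crossed an edge and 33.8% of modes were at cytosine; this alternative, the joining of peaks at junctions and the removal of 23 peaks with copies in the genome were chosen after seeing the data. Depth per library is unknown, so scores cannot be weighted by reads.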

Other observations

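Some genes with 3 or more CDS peaks outside the rule for named genes are described here, chosen after their values were seen. Srebf1, a transcription factor of lipid synthesis that is made as a membrane-bound precursor, had 3 CDS peaks with scores of 11.5, 8.25 and 4.32, and 2 of them lay in the first 20% of its coding sequence. The secreted phosphoprotein gene Spp1 (osteopontin) had 3 peaks with scores of 11.1, 9.93 and 6.51. Mbd6, which encodes a protein with a methyl-CpG-binding type domain, had 3 peaks with scores of 13.2, 8.40 and 6.20, all between 24.0% and 45.6% of its coding sequence. The lysosomal protein gene Psap had 3 peaks with scores of 9.85, 4.60 and 2.90, of which 2 form a junction pair.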
